A study of Mus musculus with 4 samples.

Results

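Aif1 encodes Iba1, a calcium-binding and actin-bundling protein by which microglia are stained in brain sections. It was examined with the genes that flank it in the MHC class III segment of chromosome 17. The members were Aif1, Lst1, Ltb, Tnf, Lta, the pseudogene Ncr3-ps and Prrc2a, which are 7 of the 55450 genes in the annotation. Rows of the authors' 2 tables were taken where they lay inside one of these genes or within 10000 bp of it. That gave 65 of 269406 listed positions and 2 of 3389 listed regions. The locus was chosen by the differences in level that both tables list at Aif1, so the presence, size and FDR of those differences are a description and carry no test.

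The tables compare, by whole-genome bisulfite sequencing, microglia of wild-type mice and of IRF8KO mice, which lack the transcription factor IRF8. Each group had 2 samples, labelled WT and IRF8KO. All were FACS-sorted microglia of untreated C57BL/6J mice of 3 months, taken from the brain without enzymes. The labels do not say whether the samples of a group came from separate animals, nor how the IRF8KO allele was made. The tables number the groups as first and second without naming the genotype, so a direction below is that of the first group against the second. They hold no value per sample and no read depth. A dispersion, a fitted measure of spread, is given per group at each position. The replicates themselves cannot be compared, the precision that depth would give is unknown, and the standard errors are those of the authors. RNA was not measured in this series, so the cell type was not checked against marker expression and no methylation value here says how strongly a gene was expressed.

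Bisulfite sequencing reads the methylation level of a cytosine as the share of molecules, from 0 to 1, that stay unconverted. In mammals most methylation lies on the C of a CpG on either strand, and regulatory elements in use in a cell type usually carry less of it than the DNA around them. IRF8 binds DNA in myeloid cells, often beside the ETS factor PU.1. The class III segment lies between the class I and class II genes of the MHC and is dense in short genes of immune function, among them those for TNF and the lymphotoxins.

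Of the 7 genes, Aif1 alone held listed positions inside its body. It had 61 there and another 2 within 28 bp past its 3′ end, and all 63 were lower in the first group, as were 38.1% of all listed positions. The bodies of Lst1, Ltb, Tnf, Lta, Ncr3-ps and Prrc2a held 0. The other 2 listed positions lay upstream of Lta and were higher in the first group. Every one of the 39 positions with a false discovery rate (FDR) under 0.05 lay in Aif1. They were 61.9% of its 63 listed positions, where 18.7% of all listed positions passed that FDR and 7.84% passed it with a lower level in the first group. These shares describe rows that the choice of genes had already used. The shares of all listed positions take those inside and outside listed regions together. By the authors' numbering of the positions they tested, 2.10% of those in the 76276 bp window were listed, against 0.630% in the whole table.

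Aif1 (ENSMUSG00000024397.14) spans 35170991 to 35176068 on the minus strand of chromosome 17 in GRCm38. Its longest protein-coding transcript has 8 exons and gives the exon numbers used here. Shorter protein-coding transcripts start inside the body of the gene, at 35173278, 35172819 and 35172631. The starts at 35172819 and 35172631 lie in a stretch without a listed position. The one called the shorter transcript below starts at 35173278. The region with the larger area score, a sum of test statistics over its positions, covers the 3′ end. It runs from 35170963 to 35171957, from intron 5 to the end of exon 8 and 28 bp beyond, through coding sequence, introns and the 3′ UTR. The other region runs from 35173209 to 35173896. It covers the 3′ part of intron 1 and part of exon 2, which is 5′ UTR, and so lies across the start of the shorter transcript. The start of the gene itself lies 2172 bp away from its nearer edge.

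The sequences below show where the differences sit. In intron 7, chr17:35171194-35171413 on the minus strand, capitals mark the 4 listed positions, which are the C and the G of both CpGs of this intron. The listed positions with the 2 smallest FDR values of the locus are among them.

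Aif1 intron 7: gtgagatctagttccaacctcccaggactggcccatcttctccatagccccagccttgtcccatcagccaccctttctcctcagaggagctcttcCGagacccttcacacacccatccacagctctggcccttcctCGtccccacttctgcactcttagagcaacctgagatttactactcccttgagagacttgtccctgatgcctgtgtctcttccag

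At the start of the shorter transcript, chr17:35173278-35173477 is shown on the plus strand, from the first base of that transcript upstream. Capitals mark both matches in the region to the composite ETS and IRF element described further on.

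Aif1 internal start: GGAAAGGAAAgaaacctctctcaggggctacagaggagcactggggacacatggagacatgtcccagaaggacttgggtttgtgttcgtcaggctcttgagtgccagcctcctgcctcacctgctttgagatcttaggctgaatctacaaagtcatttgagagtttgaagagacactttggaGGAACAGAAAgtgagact

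In contrast, 4 listed positions further into intron 1 (chr17:35174344-35174411, minus strand) and the 2 upstream of Lta (chr17:35207348-35207390, minus strand) lay on no CpG of the reference. Capitals mark the listed positions in both.

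Aif1 intron 1: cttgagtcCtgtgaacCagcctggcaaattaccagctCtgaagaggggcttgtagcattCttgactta

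Lta upstream: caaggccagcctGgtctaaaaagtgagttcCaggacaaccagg

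In the 3′ region, the authors' deposited table gives a mean level of 0.308 for the first group and 0.786 for the second, a difference of -0.478. This region is 995 bp long and counts 35 cytosines, all of which are in the site table. They cover all of its 17 reference CpGs on at least 1 strand, and 29 of the 35 passed the FDR. In the authors' deposited table the first group lay between 0.153 and 0.446 over these positions and the second between 0.603 and 0.892. The ranges did not overlap, which describes positions that were listed for their difference and carried 11 distinct pairs of levels. In how many of all regions the ranges stay apart was not counted. In the 5′ region, the authors' deposited table gives 0.188 for the first group and 0.593 for the second, a difference of -0.405. This region is 688 bp long and counts 19 cytosines, with all of its 7 reference CpGs listed, and 10 of the 19 passed the FDR. Here the authors' deposited table has the first group between 0.143 and 0.200 and the second between 0.456 and 0.619. The ranges did not overlap here either, with the same limit, and both groups had lower mean levels than in the 3′ region. The share of positions that passed the FDR inside all listed regions is not given here. The counts of 29 of 35 and 10 of 19 are therefore a description without a comparison.

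**Figure D1:**
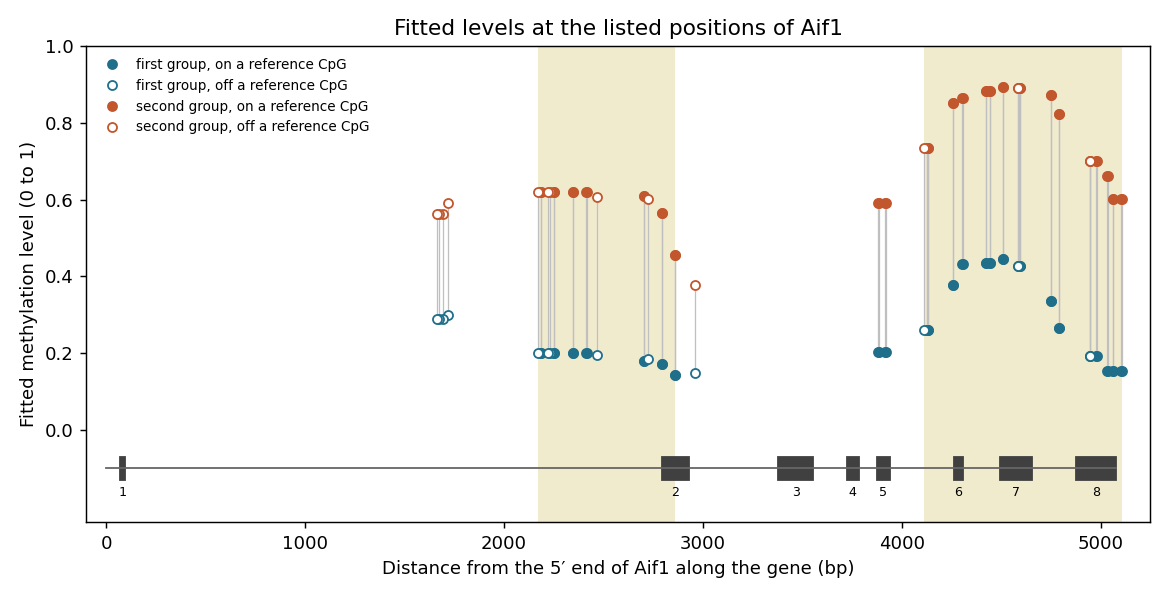
Fitted methylation level (y axis, 0 to 1) of the first and the second group at the 63 listed positions of Aif1, against the distance in bp from the 5′ end of the gene (x axis). Grey lines join the 2 groups at a position, shading marks the 2 listed regions, open circles are positions off a reference CpG, and the boxes are the 8 exons. At every listed position the first group lies below the second, and among these positions both groups reach their highest level in exon 7.

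The difference was not constant along the gene. In the authors' deposited table it was largest at the CpG of intron 7 at 35171276 and 35171277, where the first group had 0.267 and the second 0.823, a difference of -0.556. The deposited dispersion of the first group was 0.989 at 35171276 and 0.0644 at 35171277. The next CpG of that intron, at 35171317 and 35171318, had 0.336 and 0.871 in the authors' deposited table, a difference of -0.535. Its position 35171318 had the smallest FDR of the locus, 7.77e-09, with a standard error of 0.0737, and position 35171277 followed with 4.87e-08 and a standard error of 0.0799. Each carried, in 1 of the groups, a fixed dispersion that many listed positions share, as described further on. On the other strand of these CpGs, 35171317 had an FDR of 0.00206 and a standard error of 0.109. For 35171276 these were 6.95e-05 and 0.0983. The third smallest FDR of the locus, 1.47e-06, was at 35171957, the inner edge of the 3′ region in intron 5. That position is off a reference CpG and carried the fixed dispersion in both groups. In exon 7, which is coding, the authors' deposited table gives 0.426 to 0.446 for the first group against 0.892 throughout for the second, differences of -0.465 and -0.446, and all 7 listed positions passed the FDR. In intron 6 the 4 listed positions shared levels of 0.434 and 0.883 in the authors' deposited table, a difference of -0.449, and all 4 passed. Among the listed positions of the gene, both groups had their highest level in exon 7. Exon 8, with the stop codon and the 3′ UTR, had 9 listed positions, of which 7 passed. The authors' deposited table puts its first-group levels at 0.153 to 0.193 and its second-group levels at 0.603 to 0.701, the differences running from -0.508 to -0.450. The 2 positions past the 3′ end had the same difference of -0.450 in the authors' deposited table, and neither passed.

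Towards the 5′ end the differences were smaller. Exon 5, which is coding and lies between the regions, had 4 listed positions at 0.203 and 0.591 in the authors' deposited table, a difference of -0.388, and their FDR values ran from 0.133 upward. Exon 2 held 2 CpGs, both listed. One had 0.173 and 0.564 in the authors' deposited table, a difference of -0.391, and the other 0.143 and 0.456, a difference of -0.313, and 1 strand of each passed. Intron 1 had 19 listed positions, of which 8 passed. Of these 19, 15 lay in the 5′ region, where the differences of the authors' deposited table ran from -0.430 to -0.411. The other 4, shown above, lie nearer the start of the gene. Their levels in the authors' deposited table were 0.288 or 0.298 against 0.562 or 0.592, which are differences of -0.273 and -0.293, and none passed. A single position in intron 2, off a reference CpG, had the smallest difference, -0.228, from 0.149 and 0.378 in the authors' deposited table, with an FDR of 0.656. Of the 9 listed positions of Aif1 outside the regions none passed. The position that passed with the largest FDR, 0.0464, was 35173653 in intron 1, and the one that missed by the least, at 0.0530, was 35171810 in intron 5.

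**Figure D2:**
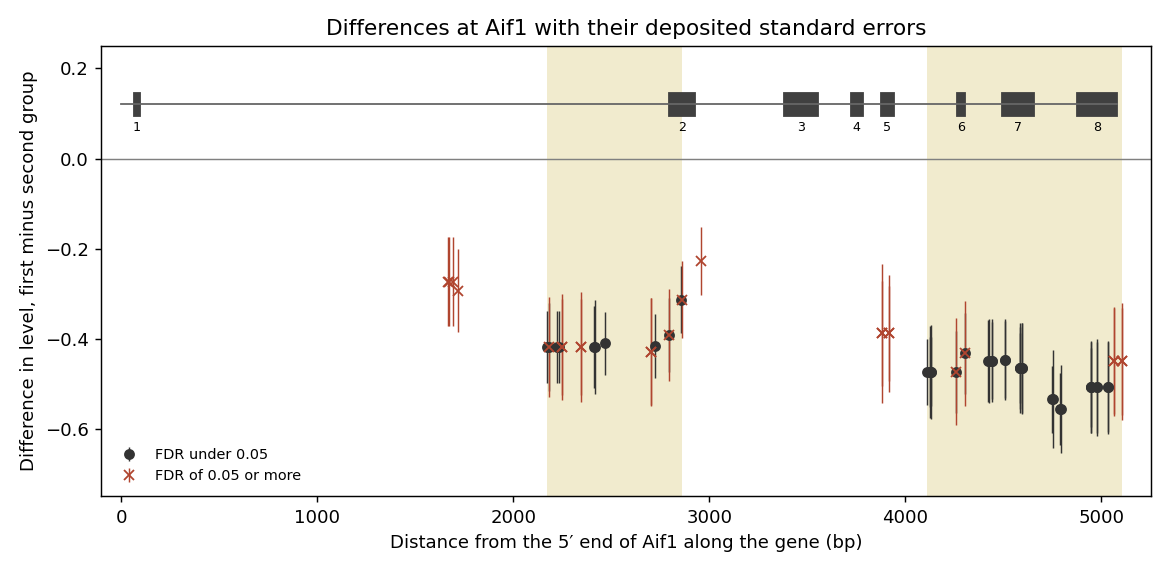
Difference in level, first minus second group (y axis), at the 63 listed positions of Aif1 against the distance in bp from the 5′ end of the gene (x axis), with bars of 1 deposited standard error. Filled circles have an FDR under 0.05 and crosses do not, shading marks the listed regions, and boxes are the exons; every difference is below 0, the largest is -0.556 in intron 7, and no circle lies outside the shading.

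Many of these values were shared between positions. The 63 positions of Aif1 carried 22 distinct pairs of fitted levels, so that neighbours shared a value. The 50 positions on a reference CpG belonged to 26 CpGs, 24 of them listed on both strands, and in all 24 both strands had the identical difference. The strands differed in their standard error and so in their FDR. Of the 26 CpGs, 12 passed on both strands, 7 on 1 strand and 7 on neither. At 31 of the 50 positions on a CpG the FDR was under 0.05.

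The remaining 13 positions of Aif1, or 20.6%, were off a reference CpG, close to the 22.0% of all listed positions. Of these, 11 carried one fixed pair of dispersions, 0.0571 and 0.0558, which 99278 listed positions share. None of the 50 on a CpG carried both. In the whole site table, 96.3% of the positions off a CpG and 20.1% of those on one carried it. The median standard error was 0.0793 at the 13 positions and 0.102 at the 50 in the authors' deposited table. Of the 13, 8 passed the FDR. What these positions are was not tested. Without them 50 positions remained, all lower in the first group, of which 31 passed.

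The unlisted part of Aif1 was larger than the listed part. The gene body holds 65 reference CpGs, of which 25 were listed and 40 were not. Between exon 5 and the position in intron 2 the authors tested 31 positions that they did not list. That stretch of 922 bp holds 13 CpGs and includes exon 3, which carries the start codon, and exon 4. From the last listed position of intron 1 to the first one upstream of Lta, 32956 bp, 1157 positions were tested and not listed. Exon 1 and the annotated start of Aif1 are in that stretch. An unlisted position has no value in the tables, so its level, and whether the groups differ there by a smaller amount, is unknown.

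The RefSeq table (GRCm38.p6) holds a promoter of 300 bases, 250 before and 50 after the start, for 5 of the 7 genes: Aif1, Ltb, Tnf, Lta and Prrc2a. None of the 5 contained a listed position. They differ in how many CpGs could have been listed. Prrc2a has 25 there, Tnf 11, Lta 10, Ltb 7 and Aif1 only 1. The 200 bases before the annotated starts of Aif1 (chr17:35176069-35176268) and Tnf (chr17:35202008-35202207) are printed on the minus strand with the CpGs in capitals, to set the CpG-poor start of Aif1 beside a CpG-richer one.

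Aif1 upstream: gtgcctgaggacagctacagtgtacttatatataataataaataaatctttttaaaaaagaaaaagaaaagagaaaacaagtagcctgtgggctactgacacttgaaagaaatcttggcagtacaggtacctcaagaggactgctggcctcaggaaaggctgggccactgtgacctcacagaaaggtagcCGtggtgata

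Tnf upstream: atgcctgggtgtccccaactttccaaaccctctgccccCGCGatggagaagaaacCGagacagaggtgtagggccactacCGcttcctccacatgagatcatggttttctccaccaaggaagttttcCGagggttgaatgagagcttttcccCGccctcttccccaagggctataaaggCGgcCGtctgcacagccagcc

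The regions were searched on both strands for 6 motifs. The composite element of an ETS and an IRF factor was read as GGAA, any 2 bases, then GAAA. The 5′ region of Aif1 held 2 matches to it and the 3′ region held 0. One match, ggaaaggaaa, lies at 35173278 to 35173287 on the plus strand, over the first base of the shorter transcript. It is 5 bp from the listed CpG of exon 2, which had a difference of -0.391 in the authors' deposited table. The other, ggaacagaaa, lies at 35173460 to 35173469, 95 bp from the nearest listed position. The element was in 9.38% of all 3389 regions, in 17.6% of the 1581 that were lower, and in 16.6% of the 181 regions at least as long as the 5′ region. For the 63 regions at least as long as the 3′ region the share was 17.5%. Of the 32851 RefSeq promoters 2.72% held it.

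Neither region held a match to the other 5 motifs, which were an IRF element (GAAA, any 2 bases, GAAA), a PU.1 site (GAGGAAGT), an AP-1 site (TGANTCA), a C/EBP site (TTGCNNAA) and an NF-kappaB site (GGG, any 3 bases, TTCC). Of regions at least as long as the 5′ region, 14.9%, 5.52%, 33.7%, 35.9% and 11.6% held these, in that order. For the 63 regions at least as long as the 3′ region, the shares were 20.6%, 6.35%, 39.7%, 50.8% and 14.3%. In the promoters, Aif1 had 1 match to the IRF element, Ltb 1 to the NF-kappaB site, and Prrc2a 1 each to the C/EBP and NF-kappaB sites, while the promoters of Tnf and Lta had none of the 6. In all RefSeq promoters these 3 motifs were present in 3.44%, 10.8% and 5.56% for IRF, C/EBP and NF-kappaB. A match describes letters only.

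Among the neighbours, Tnf (35199381 to 35202007, minus strand) encodes the inflammatory cytokine TNF, Lta (35203165 to 35205351, minus strand) the secreted cytokine lymphotoxin alpha, and Ltb (35194439 to 35196320, plus strand) its membrane-bound partner lymphotoxin beta. The bodies of Tnf, Lta and Ltb hold 54, 38 and 95 reference CpGs, and none was listed. Lta had the 2 positions at 35207360 and 35207378, 2009 and 2027 bp upstream of its start, which also lie 5353 bp or more from Tnf. In the authors' deposited table both have 0.903 for the first group, 0.665 for the second and a difference of 0.238, with a standard error of 0.0772 and an FDR of 0.563. Both are in repeat-masked sequence, off a reference CpG and with the shared pair of dispersions. With positions on a CpG counted alone, no row was left within 10000 bp of Tnf or Lta. The nearest listed CpG was 25497 bp from Tnf and 29281 bp from Lta, in Aif1.

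Ltb and Lst1 had no row at all within 10000 bp. Lst1 (35185095 to 35188439, minus strand), a gene expressed in leukocytes, lies 10692 bp from the nearest listed position, just past the distance chosen, and holds 46 reference CpGs. For Ltb the nearest was 11040 bp away. Ncr3-ps (35180535 to 35184662, plus strand), a pseudogene of a natural killer cell receptor, and Prrc2a (35149076 to 35164897, minus strand), which encodes a long proline-rich protein, each had the 63 positions and both regions of Aif1 within 10000 bp. The nearest was 6132 bp from Ncr3-ps and 6066 bp from Prrc2a. These rows lie inside Aif1 or just past its 3′ end, and the bodies of both neighbours held 0, although Prrc2a has 398 reference CpGs. Which gene they act on was not tested. Before the 3′ end of Aif1, 3156 tested positions in a row were not listed, over 67708 bp that contain all of Prrc2a.

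The other genes annotated in the window were Bag6, the snoRNA gene Gm23442, the lincRNA gene Gm17705 and the microRNA genes Mir6973a and Mir6974. All had 0 listed positions inside. Outside the window the next listed positions were 35822 bp away on the side of Prrc2a and 29827 bp away on the side of Lta.

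**Figure D3:**
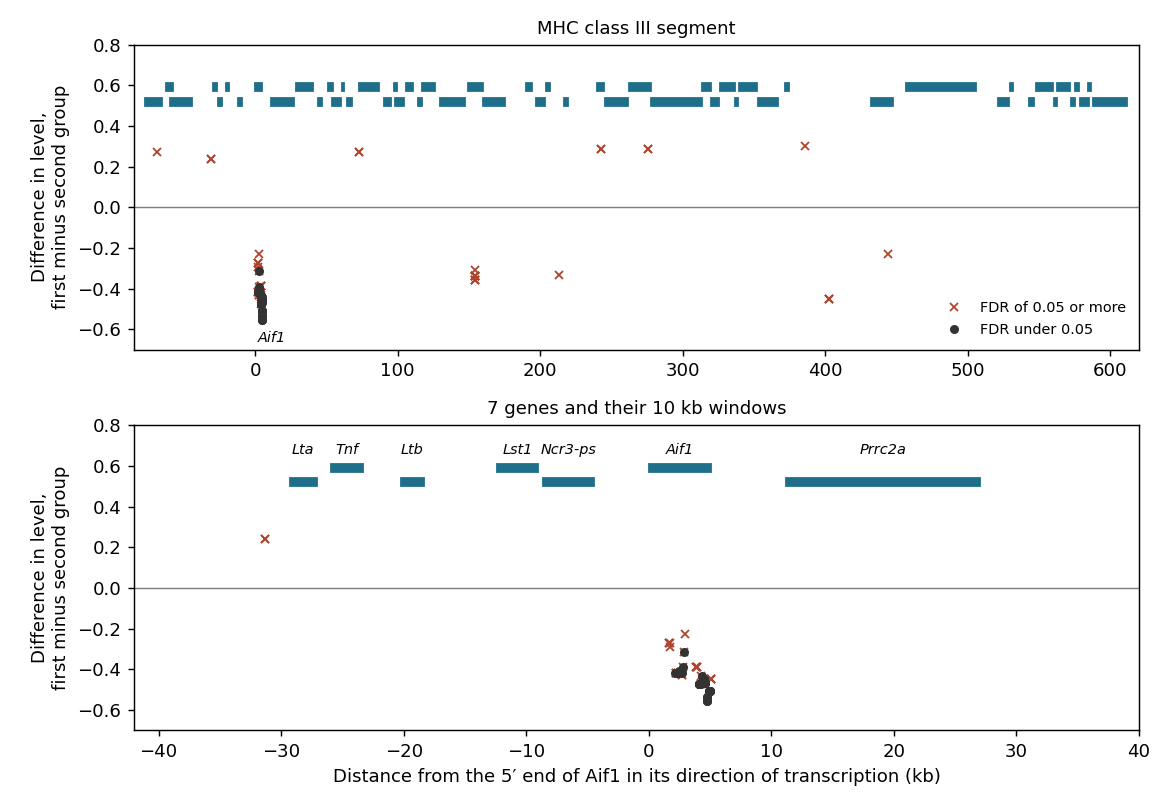
Difference in level, first minus second group (y axis), at each listed position against the distance in kb from the 5′ end of Aif1 in its direction of transcription (x axis), in the MHC class III segment (upper panel, 53 genes as bars) and at the 7 genes (lower panel, genes named above their bars). Circles have an FDR under 0.05 and crosses do not; every circle lies in Aif1, and the only other listed positions of the lower panel are the 2 upstream of Lta.

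The same held for the wider segment. From Notch4 to Ddx39b, 689440 bp with 53 listed class III genes, there were 88 listed positions, of which 63 (71.6%) were those of Aif1. The other 25 comprised 15 lower and 10 higher in the first group, and none passed the FDR, the smallest being 0.261. They include 10 positions inside Vwa7, all lower. There the authors' deposited table gives 0.275 to 0.339 against 0.583 to 0.676 and differences between -0.358 and -0.309. The segment contained no region besides those of Aif1. Of the 53 genes, 2 had a region within 10000 bp, Aif1 and Prrc2a, through the same 2 regions. That is 3.77%, where 9.19% of the 21938 protein-coding genes had one. Both genes count only through the regions by which the locus was chosen, so this share is a description and carries no test. Complement genes of the segment, C2, Cfb, C4a and C4b, had none.

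Genes that act with TNF and the lymphotoxins but lie elsewhere were counted in the same way. This list was chosen with earlier results of these data known, and the protein-coding genes beside it were not matched for length. The shares below are therefore a description and carry no test. Of 30 receptor and signalling genes, 6 had a region within 10000 bp (20%), where 9.19% of protein-coding genes had one. With regions of at least 10 cytosines it was 3 of the 30, against 5.14% of protein-coding genes, and 11 of the 30 had a listed position past the FDR within 10000 bp, against 30.8%. The 6 genes had 8 regions, of which 7 were lower in the first group, where 46.7% of all regions were lower. Ikbkb, which encodes a kinase that releases NF-kappaB, had an intragenic region of 28 cytosines on chromosome 8 at 0.243 and 0.765 in the authors' deposited table, a difference of -0.522, and all 28 passed the FDR. Map3k7, which encodes the kinase TAK1, had 2 intragenic regions, at 0.374 and 0.831 and at 0.372 and 0.805 in the authors' deposited table, which are differences of -0.457 and -0.434. Of their 21 and 10 cytosines, 17 and 5 passed. Traf5, a receptor adaptor gene, had 2 as well, at 0.399 and 0.917 and at 0.310 and 0.695 in the authors' deposited table (-0.518 and -0.386), with 9 cytosines each, of which 9 and 2 passed. Nfkb1, which encodes the p50 precursor, had an intragenic region at 0.260 and 0.692 in the authors' deposited table (-0.432), where 2 of 9 cytosines passed. Nfkbia, the gene of the inhibitor IkappaB alpha, had a region of 26 cytosines 1877 bp outside the gene, at 0.434 and 0.795 in the authors' deposited table (-0.361), and 7 of the 26 passed. Tnfrsf14, which encodes a receptor of lymphotoxin alpha and LIGHT, had the only region that was higher, 6482 bp outside the gene with 4 cytosines, at 0.824 and 0.263 in the authors' deposited table (0.561), of which 3 passed. The receptor genes Tnfrsf1a, Tnfrsf1b and Ltbr had no region. For the cytosines that passed in each region, the share inside all listed regions is not given here, so these counts have no comparison.

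**Figure D4:**
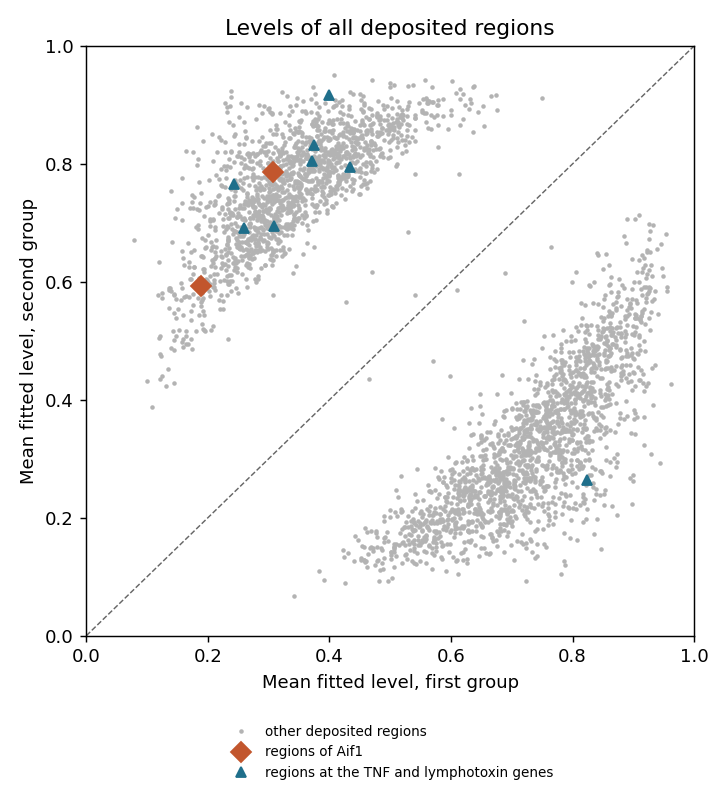
Mean fitted level of each deposited region in the first group (x axis) and the second group (y axis), both from 0 to 1, for all 3389 regions. Diamonds are the 2 regions of Aif1 and triangles the 8 regions at the TNF and lymphotoxin genes, the dashed line marks equal levels; both diamonds lie above the line, with 1581 of the regions.

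Set beside all regions, those of Aif1 were large in extent more than in difference. The absolute difference of the 3′ region exceeded that of 82.3% of the 3389 regions and its area score, -176, exceeded that of 96.4% in size. For the 5′ region, with an area score of -82.8, the shares were 50.2% and 82.0%. The median region had 9 cytosines, against 35 and 19 in Aif1, and the median absolute difference of regions lower in the first group was 0.413. Among those 1581, the medians of the authors' deposited table were 0.332 for the first group and 0.772 for the second. The 3′ region lay near both medians, and the 5′ region lay below both. Of 21938 protein-coding genes, 523 had 2 or more regions within 10000 bp.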

How the data were processed

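Libraries were made with the Pico Methyl-Seq kit from bisulfite-converted DNA, per the labels' protocols. Per the submitters' processing notes, Trim Galore and Bismark were used and the build was mm10, and the program that compared the groups is not given in the sources used here. Per the file headers, the authors deposited fitted methylation levels as a fraction per group, their difference with its standard error, a test score, dispersions, a p-value with its FDR, and a region area score that sums test statistics. The deposited difference equals the first minus the second level. No genotype was assigned to either group. Deposited row numbers follow position and were read as an index of tested positions, interpolated at window edges. Per-sample columns left unused numbered 0.

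Genes came from GENCODE release M21, and CpGs and sequences from the RefSeq copy of GRCm38. Python 3.11.15 with pandas 2.3.3 was used. No test was added to those of the authors: the smallest two-sided p that exact permutation of 2 against 2 samples allows is 0.333. Counting functions were tested on simulated data. The members and lists were chosen with earlier results of these data known. All 7 genes, every region and the 3 positions with the smallest FDR per gene were named, and other positions were chosen after their values were seen.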

Additional observations from a re-analysis of the deposited data

How the results depend on the processing

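Of 57 alternatives, 36 left the value within 1.5 times a count, within the 95% Clopper-Pearson interval of a share, which covers counting error only, or within the median standard error of a difference. No value changed its direction. No paired analysis was possible because each deposited value is fitted over a whole group, and for that reason the replicate block, leaving out each replicate and another coverage minimum were not run. The repeat-masked setting was chosen after seeing the data. The 65 listed positions became 43 with a dispersion of their own, 41 with the strands of a CpG counted once and 3 as clusters within 500 bp. The 39 positions past the FDR became 18 under 0.001, 24 with a dispersion of their own and 2 as clusters. The 96.9% lower in the first group (interval 89.3 to 99.6) became 66.7% as clusters, where the Lta pair is 1 of 3, and 100% inside the genes, around Aif1 only, on reference CpGs, with a dispersion of their own, with an FDR under 0.05, with a difference of at least 0.3 and outside repeat-masked sequence. The listed share of tested positions, 2.10%, was 4.39% inside the genes and 6.48% around Aif1, since these windows leave out unlisted flanks. The class III genes with a region, 2, became 1 within 5000 bp and 1 inside the gene, where 7.92% and 6.72% of protein-coding genes had one. All these class III counts rest on the regions by which the locus was chosen. The TNF and lymphotoxin genes with a region, 6, became 3 with at least 10 cytosines (5.14% of protein-coding genes), and 11 had a position past the FDR (30.8% of protein-coding genes). The 2 composite motif matches became 1 within 500 bp around the midpoint. Each setting counts a different set, and what else lies behind these changes was not tested.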
